A study of Rattus norvegicus with 4 samples.

Results

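A set of 9 transcription factor genes that link the circadian clock to its outputs were described in the kidney inner medulla of female and male rats: Dbp, Tef, Hlf, Nfil3, Nr1d1, NR1D2, Rora, Bhlhe40 and Bhlhe41. They were chosen by symbol from the authors' table of inner medulla transcripts, and each of the 9 stood on 1 row of its 35374 loci. All 9 were among the 20307 loci that the authors tested. The inner medulla is the innermost zone of the kidney, where urine is concentrated. Sprague Dawley rats, female in 1 group and male in the other, were bought at 13 to 15 weeks of age. They were fed chow with 0.49% NaCl from 14 to 16 weeks of age for 2 weeks, and the labels name no other treatment in either group. Total RNA was sequenced from 2 pools of 4 rats for each sex. The 2 female libraries had 41945343 and 37630274 read pairs and the 2 male libraries 34552171 and 36978021, and 89.6% to 90.3% of reads mapped. The table holds 1 value per sex in FPKM, fragments scaled by transcript length and library size, so the spread between pools is not analysed here and no value carries an SD. The only error measure is the p-value of the authors' deposited table and its q-value, adjusted over all tested loci, and a gene was called where q was under 0.05. The time of day at which tissue was taken is not given in the sources used here, and its part in any difference below was not tested. These are bulk samples, in which fewer cells of a type and less RNA per cell cannot be told apart.

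The mammalian clock is a feedback loop in which BMAL1, with CLOCK or NPAS2, binds E-boxes and drives Per and Cry genes, whose proteins then block BMAL1. A second loop is formed by the nuclear receptors REV-ERB (Nr1d1, NR1D2), which repress, and ROR (Rora), which activates, through the same ROR elements, among others in the Bmal1 gene. Output is carried in part by the PAR bZIP activators DBP, TEF and HLF, which bind D-boxes, and by NFIL3, a repressor of the same sites. BHLHE40 and BHLHE41, also called DEC1 and DEC2, repress at E-boxes. In mice, loss of clock genes has been tied to altered handling of salt and water by the kidney.

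The start regions of these genes are shown because the canonical E-box, through which the core clock acts, sets some of them apart by sequence. RefSeq promoter windows of assembly GRCr8, from 250 bases before to 50 after a start, were matched by symbol for 8 of the 9 genes, with 9 windows since Nr1d1 has 2 starts. Both strands were searched for the E-box CACGTG and its variant CACGTT, and for the D-box TTATGTAA, which lies within the wider TTATGNAA. The cyclic AMP element TGACGTCA and the ROR element, read as AGGTCA directly after AA, any base and T, were searched too. CACGTG was found in 4 of the 9 windows, those of Tef, Bhlhe40, Bhlhe41 and the second start of Nr1d1, against 6.42% of all 33469 windows of the table. CACGTT was found in 1, at the first start of Nr1d1, against 4.83% of all windows. The other motifs had no match in the 9 windows, and 0.893% (TTATGTAA), 3.66% (TTATGNAA), 1.83% (TGACGTCA) and 0.245% (ROR element) of all windows hold one. A match is a run of letters and was not tested as a binding site. The 4 stretches with the E-box are given 5′ to 3′ along each gene, with CACGTG in capitals and 30 bases on each side. Its first base lies 198 bases before the start in Tef, 220 in Bhlhe40, 48 in Bhlhe41 and 191 in Nr1d1. The stretches are chr7:115206599-115206664 on the plus strand, chr4:143174200-143174265 on the plus strand, chr4:180569368-180569433 on the minus strand and chr10:84229610-84229675 on the minus strand.
Tef: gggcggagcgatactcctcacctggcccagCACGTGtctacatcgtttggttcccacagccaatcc
Bhlhe40: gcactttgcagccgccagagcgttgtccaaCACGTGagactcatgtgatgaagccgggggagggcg
Bhlhe41: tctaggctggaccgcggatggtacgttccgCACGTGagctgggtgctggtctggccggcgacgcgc
Nr1d1, second start: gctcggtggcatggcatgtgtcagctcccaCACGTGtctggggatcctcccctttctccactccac

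The 3 genes of the set that differed between the sexes were Tef, Dbp and Nfil3, and the 250 bases before the start of each are shown to set them side by side. Of these only the Tef region (chr7:115206577-115206826, plus strand) holds CACGTG, in capitals. Those of Dbp (chr1:105312006-105312255, plus strand) and Nfil3 (chr17:12432126-12432375, plus strand) hold none of the motifs searched, which says nothing of sites elsewhere in these genes. The G and C share of these bases was 65.6% in Tef, 61.2% in Dbp and 46.4% in Nfil3.
Tef: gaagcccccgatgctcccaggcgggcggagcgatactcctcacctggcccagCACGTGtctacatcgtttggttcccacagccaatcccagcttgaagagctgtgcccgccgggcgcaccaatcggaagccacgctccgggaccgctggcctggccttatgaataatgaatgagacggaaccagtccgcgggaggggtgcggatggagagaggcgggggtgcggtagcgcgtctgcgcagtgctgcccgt
Dbp: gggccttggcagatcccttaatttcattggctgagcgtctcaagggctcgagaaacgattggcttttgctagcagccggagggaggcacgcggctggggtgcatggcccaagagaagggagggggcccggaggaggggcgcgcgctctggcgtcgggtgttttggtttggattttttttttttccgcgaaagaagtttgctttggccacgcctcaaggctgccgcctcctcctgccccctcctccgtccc
Nfil3: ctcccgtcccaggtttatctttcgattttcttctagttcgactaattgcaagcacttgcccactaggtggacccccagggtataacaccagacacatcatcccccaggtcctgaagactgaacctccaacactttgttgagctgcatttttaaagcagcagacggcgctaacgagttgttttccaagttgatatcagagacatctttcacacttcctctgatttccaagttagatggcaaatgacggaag

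Of the 9 genes, 3 were called in the authors' deposited table. Nfil3 was higher in females, and Dbp and Tef were lower in females than in males. That is 1 of 9 towards females, where 1.63% of all tested loci were called, and 2 of 9 towards males, where 0.719% were called. The genes were listed with earlier results of these data in view, so these shares are a description. In log2 ratio of female to male FPKM, 4 genes lay above 0 and 5 below, and the median was -0.03, beside -0.0048 over the 20037 tested loci above 0 in both sexes. At an unadjusted p under 0.05 there were 4 genes, the fourth being Rora. That is 2 of 9 towards females, beside 6.08% of all tested loci at that p, and 2 of 9 towards males, beside 3.68%. The counts at an unadjusted p given for lists below stand beside the same shares. The counts called at q under 0.05 in those lists stand beside 1.63% of all tested loci towards females and 0.719% towards males.

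FPKM is scaled by transcript length, but the intervals of these genes were not checked against a genome, so levels compare only roughly between genes. The levels of the 9 genes spanned 269-fold between the highest and the lowest mean of both sexes. In that order they were Dbp, Nr1d1, Bhlhe40, Tef, NR1D2, Nfil3, Rora, Hlf and Bhlhe41. Dbp, at the 95.8th percentile of mean FPKM among tested loci, and Nr1d1, at the 92.0th, were among the more abundant transcripts, while Hlf was at the 27.7th and Bhlhe41 at the 5.03rd. The values of Bhlhe40 and Tef overlap across the sexes, as do those of Rora and Hlf, so the order within these pairs depends on the sex. With 1 value per sex the spread behind the other steps is not known.

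**Figure D1:**
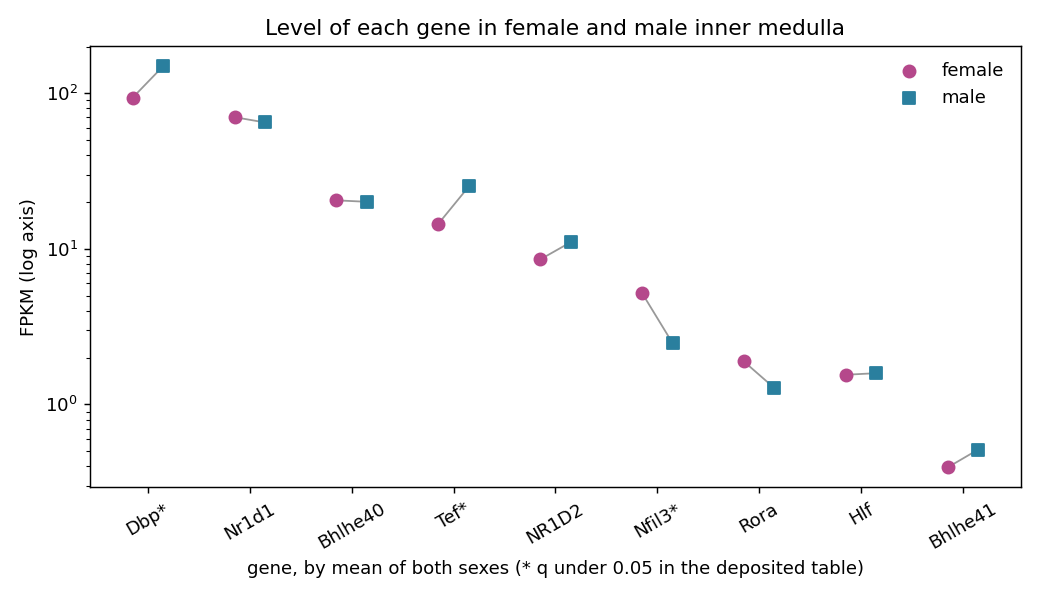
FPKM on a log axis for each of the 9 genes, ordered by the mean of both sexes, with the authors' female value as a circle left of the male value as a square, 1 value per sex and no error bar; a star marks genes with q under 0.05 in the authors' deposited table. Dbp (93.9 FPKM in females, 149.9 in males) and Tef (14.5 FPKM in females, 25.2 in males) are lower in females, Nfil3 is higher (5.20 FPKM in females, 2.48 in males), and the pairs of Nr1d1, Bhlhe40 and Hlf nearly coincide.

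Of the 3 PAR bZIP activators, Dbp and Tef were called, both lower in females, and Hlf was not. Dbp, named for its binding to a D-box of the albumin gene and one of the most strongly cycling clock outputs in rodent tissues, lies on chromosome 1 (102766761 to 102771674 in build rn5, as the authors' table gives it). Its level was 93.9 FPKM in the female pools and 149.9 FPKM in the male pools, a log2 ratio of -0.68, or 37.4% lower in females (p = 1e-04, q = 0.00703 in the authors' deposited table). Among 1348 other tested loci within a factor of 2 of its mean FPKM, 98.0% had a smaller absolute log2 ratio. Tef, thyrotroph embryonic factor, lies on chromosome 7 (123009521 to 123034383). Its level was 14.5 FPKM in females and 25.2 FPKM in males, a log2 ratio of -0.80 (p = 5e-05, q = 0.00391 in the authors' deposited table). This p is the smallest in that table and is shared by 260 loci. Of 4927 loci of like level, 98.6% had a smaller absolute log2 ratio than Tef. Hlf, hepatic leukemia factor (77697603 to 77778346 on chromosome 10), was at 1.55 FPKM in females and 1.59 FPKM in males, a log2 ratio of -0.03 (authors' deposited table, q = 0.999). A q above the threshold does not show that the sexes are alike.

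Together the 3 activators summed to 110 FPKM in females and 177 FPKM in males. Dbp made up 85.4% of that sum in females and 84.8% in males, so its share was nearly the same. The ratio of Dbp to Tef was 6.48 in females and 5.94 in males.

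Nfil3, the repressor that competes for D-boxes and is also induced by cytokines in immune cells, went the other way. Its locus is on chromosome 17 (14372305 to 14374095) and was at 5.20 FPKM in females and 2.48 FPKM in males, a log2 ratio of 1.07 (p = 6e-04, q = 0.0302 in the authors' deposited table). Of 5124 loci within a factor of 2 of its mean FPKM, 94.1% had a smaller absolute log2 ratio. The summed level of the 3 activators was 21.1 times that of Nfil3 in females and 71.4 times in males. This ratio, 3.38-fold larger in males, was formed after the values were seen and has no test. The call of Nfil3 is the least firm of the 3: it is lost at q under 0.01, where 1.1% of tested loci were called towards females and 0.443% towards males, and Dbp and Tef stay called. Nfil3 also falls outside a filter at a mean of 5 FPKM, over whose 10076 loci 1.57% were called towards females and 0.774% towards males. At q under 0.1 the same 3 genes were called, beside 2.34% of tested loci towards females and 1.06% towards males.

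**Figure D2:**
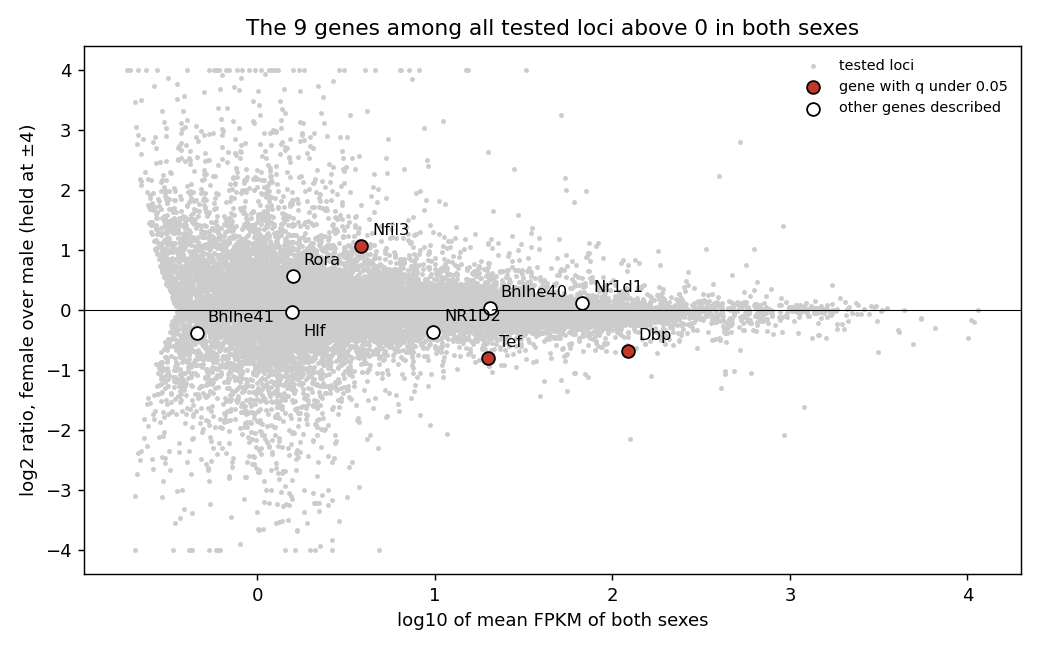
Log2 ratio of female to male FPKM against the log10 of mean FPKM, each grey point a tested locus above 0 in both sexes with ratios beyond 4 in size drawn at the edge; filled points are Dbp, Tef and Nfil3, with q under 0.05 in the authors' deposited table, and open points the other 6 genes. Dbp and Tef lie in the lower part of the cloud and Nfil3 in its upper part, each with other loci further out. Of loci of like level, 98.0% (Dbp), 98.6% (Tef) and 94.1% (Nfil3) had a smaller absolute log2 ratio. Bhlhe40, Nr1d1 and Hlf lie close to 0.

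Neither REV-ERB repressor was called. Nr1d1, which encodes REV-ERB alpha, a heme-binding nuclear receptor and a direct E-box target of the clock, was at 70.3 FPKM in females and 65.0 FPKM in males, a log2 ratio of 0.11 (q = 0.999, authors' deposited table). Its interval on chromosome 10 (86453389 to 86486598) is listed in the same form for Thra, the thyroid hormone receptor alpha gene on the opposite strand, whose end overlaps that of Nr1d1. Thra was at 60.2 FPKM in females and 52.7 FPKM in males, a log2 ratio of 0.19. Whether strand was used in counting is not given in the sources used here. Reads from the overlapping ends may therefore be counted for either gene, and the Nr1d1 level is uncertain. NR1D2, which encodes REV-ERB beta (12792821 to 12816505 on chromosome 15), was at 8.55 FPKM in females and 11.05 FPKM in males. Its log2 ratio was -0.37, for which the authors' deposited table has p = 0.0678 and q = 0.592. Both together summed to 78.8 FPKM in females and 76.0 FPKM in males, and Nr1d1 was 8.22 times NR1D2 in females and 5.88 times in males.

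Rora, the activator at ROR elements (79750704 to 79938612 on chromosome 8), was at 1.89 FPKM in females and 1.27 FPKM in males. The log2 ratio of 0.57 had p = 0.0132 in the authors' deposited table and did not pass after adjustment (q = 0.246 in the same authors' deposited table). Rorb, a relative of Rora, was not tested by the authors and was at 0.264 FPKM in females and 0.0685 FPKM in males.

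The DEC repressors were not called. Bhlhe40, which is also induced by hypoxia and growth signals (205170128 to 205176464 on chromosome 4), was at 20.5 FPKM in females and 20.1 FPKM in males, a log2 ratio of 0.03 (q = 0.999, authors' deposited table). Bhlhe41 (244395778 to 244398201 on chromosome 4) was at 0.394 FPKM in females and 0.513 FPKM in males, a log2 ratio of -0.38 with p = 0.572 in the authors' deposited table. Bhlhe40 was 52.1 times Bhlhe41 in females and 39.1 times in males. The chromosome in the authors' table was the one RefSeq gives for all 9 genes, while the intervals themselves were not checked against a genome.

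**Figure D3:**
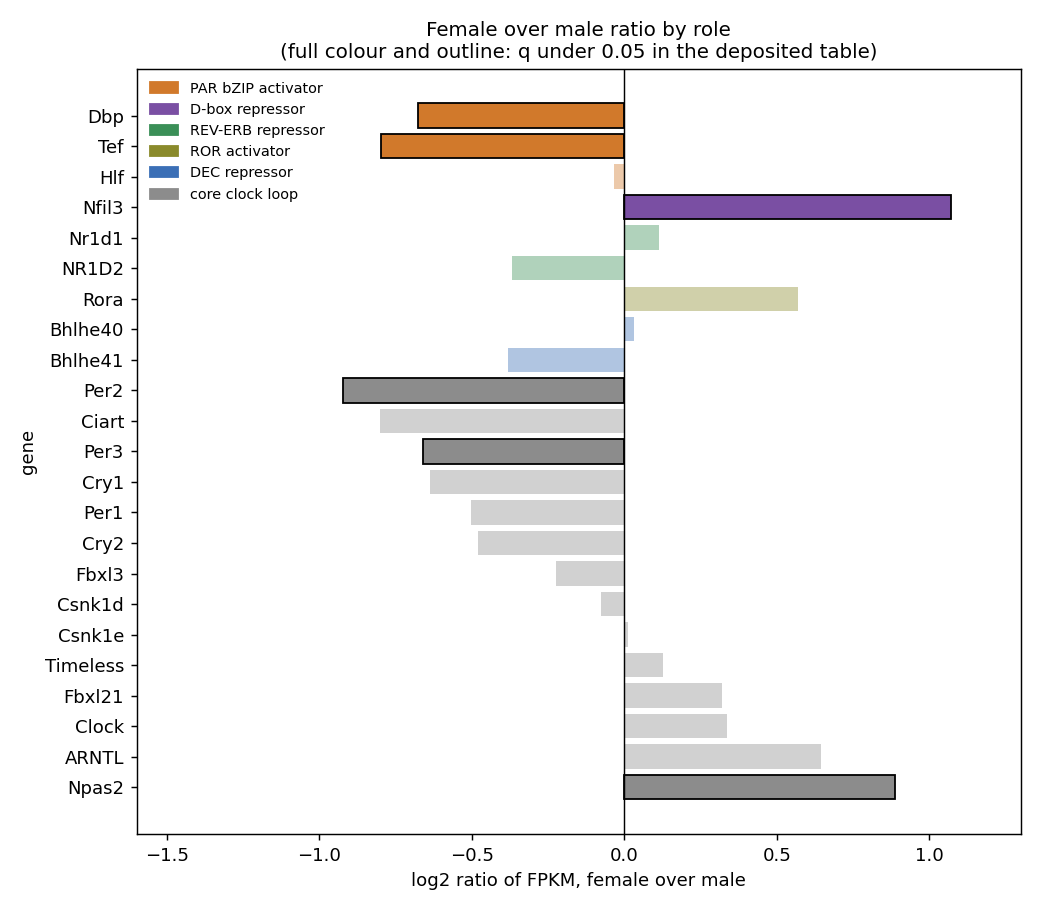
Log2 ratio of female to male FPKM for the 9 genes by role, then for 14 genes of the core clock loop in order of ratio; outlined bars in full colour had q under 0.05 in the authors' deposited table and pale bars did not. Dbp, Tef, Per2 and Per3 point towards males, Nfil3 and Npas2 towards females.

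The core loop that drives these genes was measured with 14 tested genes, of which 1 was called towards females and 2 towards males in the authors' deposited table. At an unadjusted p under 0.05 these counts were 2 and 5. Npas2, a partner of BMAL1, was at 4.87 FPKM in females and 2.63 FPKM in males (authors' deposited table, q = 0.00391). ARNTL, the older symbol of Bmal1, was at 9.72 FPKM in females and 6.21 FPKM in males (authors' deposited table, q = 0.0586). Per2, a repressor of the loop, was at 5.14 FPKM in females and 9.74 FPKM in males, and Per3 at 5.75 FPKM in females and 9.07 FPKM in males (q = 0.00970 for each, authors' deposited table). The other repressors that were tested, none of them called, had log2 ratios of -0.50 (Per1), -0.64 (Cry1), -0.48 (Cry2) and -0.80 (Ciart, listed under an older symbol). Clock was at 1.68 FPKM in females and 1.33 FPKM in males (authors' deposited table, q = 0.935). Dbp and Tef thus had ratios of the same sign as the period and cryptochrome genes, and Nfil3 and Rora of the same sign as ARNTL, Npas2 and Clock. Over the list the median log2 ratio was -0.15.

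Other genes that bind with or beside the 9 were followed in a list of 12, of which 11 were tested. By the authors' deposited table, 2 were called towards females and none towards males, with 4 and 1 at an unadjusted p under 0.05. Both were C/EBP factors, bZIP proteins whose sites resemble D-boxes, while the other 2 C/EBP genes of the list, Cebpa (log2 ratio -0.09) and Cebpg (-0.16), were not called. Cebpd was at 15.1 FPKM in females and 7.19 FPKM in males (q = 0.00970, authors' deposited table), and Cebpb at 56.1 FPKM in females and 34.5 FPKM in males (authors' deposited table, q = 0.0408). Cebpd was also among the 3 called genes nearest to Nfil3 in log2 ratio, with 1.07 in each. The REV-ERB corepressor genes Ncor1 and Hdac3 had log2 ratios of 0.15 and -0.12 and were not called. The median of the list was -0.09.

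Among 14 tested outputs of the clock known from other tissues, 1 was called towards females and none towards males, with 2 in each direction at an unadjusted p under 0.05 in the authors' deposited table. The called gene was Klf10, a transcriptional repressor, at 12.2 FPKM in females and 7.96 FPKM in males (q = 0.0421, authors' deposited table). Wee1, a cell cycle kinase with E-boxes in its promoter, was at 9.74 FPKM in females and 12.8 FPKM in males, and Usp2, a deubiquitinase, at 12.5 FPKM in females and 11.6 FPKM in males. Neither was called. Alas1 and Por, known as targets of the PAR bZIP factors in mouse liver, had log2 ratios of 0.0063 and -0.04 and were not called either. The median of the list was 0.08.

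By log2 ratio, the 3 nearest of 199 called genes with a symbol and a mean of at least 5 FPKM were taken for each called gene, the likeness being this 1 ratio over 2 values. Those nearest to Dbp were Wnt9b, a secreted signal in kidney development, Scd, a fatty acid desaturase, and Pik3r3, a regulatory subunit of a lipid kinase, at -0.68, -0.67 and -0.66. Those nearest to Tef were Steap1, Abhd3 and the locus joining both spellings of Ppp1r3c, at -0.80, -0.79 and -0.81. Those nearest to Nfil3 were Inmt, a methyltransferase, Cebpd, and Pth1r, the parathyroid hormone receptor, at 1.07, 1.07 and 1.06.

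Glucocorticoids and growth signals reach several clock genes, and lists of their targets were set beside the 9. Of 11 tested genes that respond to or carry glucocorticoid signals, 2 were called towards males and none towards females, with 5 and 1 at an unadjusted p under 0.05 by the authors' deposited table. The called genes were Zbtb16, at 3.07 FPKM in females and 6.34 FPKM in males (authors' deposited table, q = 0.00391), and Tsc22d3, at 107 FPKM in females and 165 FPKM in males. Sgk1, a kinase that raises sodium transport, was at 316 FPKM in females and 443 FPKM in males (q = 0.132, authors' deposited table). Of 16 tested immediate early genes, Fos alone was called (at an unadjusted p under 0.05 there were 0 towards females and 3 towards males), at 7.01 FPKM in females and 15.2 FPKM in males (q = 0.00391, authors' deposited table). Per1, Klf9 and Dusp1 each stand in 2 of the lists. The medians were -0.26 for the glucocorticoid list and -0.10 for the immediate early list. The part of these signals in the results for Dbp, Tef and Nfil3 was not tested.

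**Figure D4:**
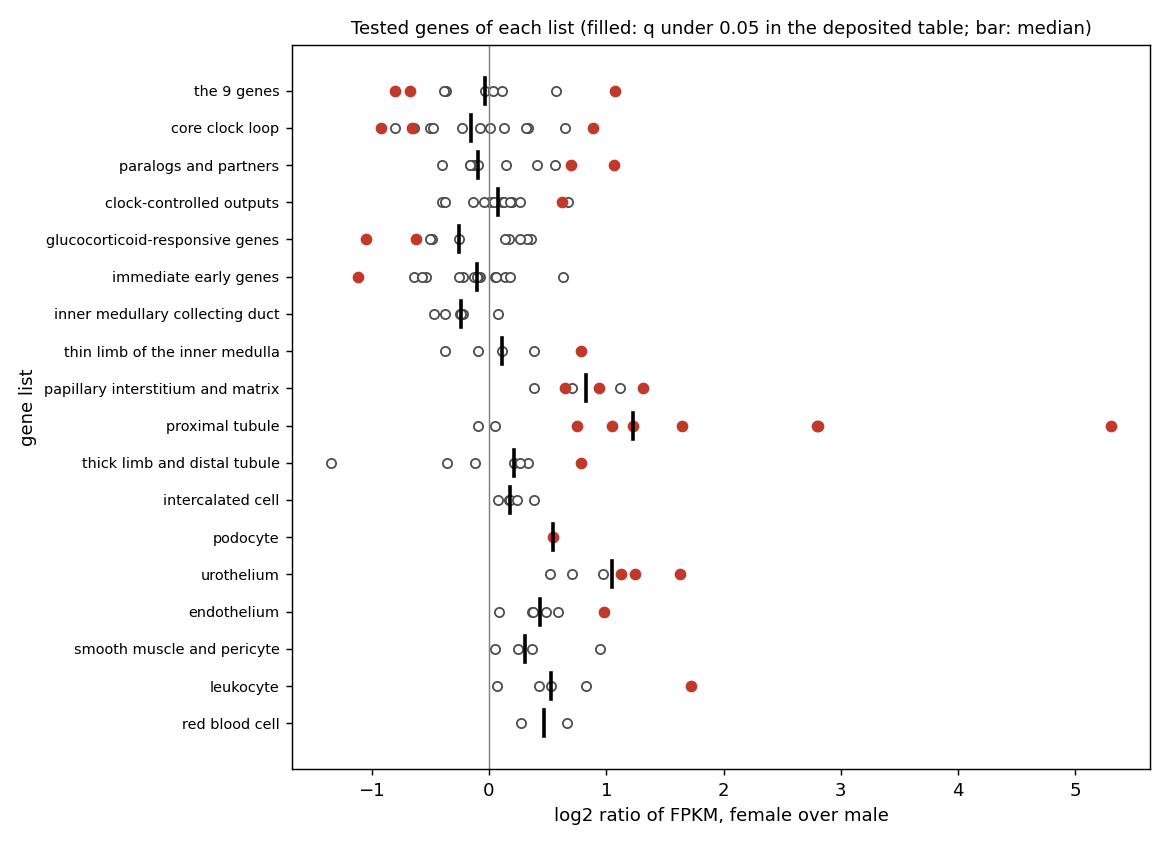
Log2 ratio of female to male FPKM for the tested genes of each list, 1 point a gene, filled where q was under 0.05 in the authors' deposited table, with a bar at the list's median. The 9 genes spread to both sides of 0 with a median of -0.03, while markers of the proximal tubule, urothelium and papillary interstitium lie towards females with medians of 1.22, 1.05 and 0.82.

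Markers of the cell types in the tissue also differed. Of the collecting duct genes, Aqp2 was abundant at 8463 FPKM in females and 11693 FPKM in males, as was Aqp3 at 1332 FPKM in females and 1553 FPKM in males. The 6 markers of this segment summed to 10700.3 FPKM in females and 14340 FPKM in males, and none was called, with 1 at an unadjusted p under 0.05 by the authors' deposited table. Thin limb markers summed to 1196 FPKM in females and 1226 FPKM in males, with 1 of 5 called, towards females. Some marker lists share genes, Slc14a2 those of collecting duct and thin limb and Aqp1 those of thin limb and proximal tubule, so these sums are not separate measures. Without the shared genes the sums were 10471 FPKM in females and 14042 FPKM in males for collecting duct, 348 FPKM in females and 268 FPKM in males for thin limb, whose order turns round, and 966 FPKM in females and 165 FPKM in males for proximal tubule. Proximal tubule markers, of cells outside this zone, were called towards females in 7 of 9 tested, and the 11 matched summed to 1585 FPKM in females and 825 FPKM in males, chiefly Kap and Aqp1. Thick limb and distal tubule markers, likewise of cells outside this zone, summed to 1189 FPKM in females and 1205 FPKM in males. Most of this sum was Umod and SLC12A1, and 1 of 7 tested was called, towards females. Pvalb, the lowest of this list, was at 0 in females and at 0.0162 FPKM in males. Podocyte markers Nphs1 and Wt1 were under 1 FPKM in both sexes, and Podxl, which endothelium also expresses, was called towards females. Markers of papillary interstitium (142.8 FPKM in females and 91.4 FPKM in males), urothelium (38.7 in females and 19.6 in males), endothelium (525 in females and 339.9 in males) and leukocytes (321 in females and 238 in males) were called towards females in 3 of 6, 3 of 6, 1 of 6 and 1 of 5 tested. At an unadjusted p under 0.05 by the authors' deposited table, these lists had 5, 5, 5 and 4 markers towards females and none towards males. Markers of intercalated cells (546 FPKM in females and 485 FPKM in males), smooth muscle (67.0 in females and 44.9 in males) and red blood cells (261 in females and 216 in males) had none called of 5, 4 and 2 tested, and at an unadjusted p under 0.05 there was 1 smooth muscle marker, towards females, and none of the others. No marker of these lists was listed at 0 in both sexes. Nfil3 was called towards females, as were some markers of most of these lists, and Dbp and Tef were called towards males. The part of cell makeup in any of the 3 differences was not tested.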

How the data were processed

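Total RNA libraries of inner medulla were made from 2 pools of 4 rats per sex with a stranded kit and read from both ends, per the labels' protocols. Cufflinks 2.2.1, TopHat2 2.1.1, StringTie, FastQC and cutadapt are the tools, and rn5 the build, in the submitters' processing notes, whose order of use is not known here. The FPKM values, 1 per sex with both pools joined, and the p-values and q-values were deposited by the authors in a table laid out like a Cuffdiff comparison, per the file headers. No header names the unit; FPKM was read from that layout. For the scaling between libraries, the dispersion model and the use of strand, nothing is given in the sources used here. Counts of read pairs and percent mapped come from the authors' deposited sheet, and no counting interval can be set on an FPKM.

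Here the log2 ratio of female over male was computed from FPKM with no pseudocount (the deposited fold change runs male over female and was not used), and a locus was called at the deposited q under 0.05. The limma fit planned for values per pool could not be run with 1 value per sex. The genes and lists were chosen with earlier results of these data known; the named genes are the 9, the called genes of each list, clock and signal genes named for their roles, the 2 highest markers of a list, and the nearest called genes. Alas1, Por, Cebpa, Cebpg, the corepressors, sums without shared markers, ratios between genes, podocyte markers, Pvalb, Thra and loci of like level were added after values were seen. List members were matched by symbol, or by an older symbol that belongs to no other gene; Arntl2, Lrp2, Acta2 and Hba-a1 were not matched and are not analysed here, and the values of some other list members are not reported here. Where a symbol stood on several rows, the row of highest mean FPKM was used. Adjustment and motif search were tested on simulated data. Python 3.11.15, pandas 2.3.3 and NumPy 2.4.6 were used. Sequences and older symbols are from RefSeq, assembly GRCr8, and no positions of that assembly were joined to the loci.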

Additional observations from a re-analysis of the deposited data

How the results depend on the processing

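The 9 log2 ratios were recomputed with a pseudocount of 1 or 0.1 FPKM, centred on the median of tested loci of at least 1 FPKM (-0.015), summed over rows, and with q adjusted again over the loci that pass a filter at a mean of 5 FPKM. None of the 41 values changed sign, but the deposited q applies under every setting except the filter, and with 1 row per gene the sum equals the main value, so only the 5 values under the filter could change side of the threshold, and none did. The log2 ratio of Dbp ran from -0.68 to -0.66, Tef from -0.80 to -0.76 and Nfil3 from 0.83 to 1.09. The filter removed 4 of the 9 genes, Nfil3 among them. Towards females, genes of the 9 called fell to 0 at q under 0.01 and to 0 with the filter, against 1. At q under 0.01, 1 gene of the paralogs and partners and 0 of the outputs were called towards females. With the filter, 0 core loop genes were called towards females and 1 glucocorticoid gene towards males, and both Npas2 and Zbtb16 have means under that filter. The counts towards males among the 9 and the core loop did not change under these settings. No paired analysis was possible because the table gives 1 value per sex, and for the same reason no pool could be left out.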
